A study of Rattus norvegicus with 15 samples.

Results

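Cytochrome P450 enzymes are heme proteins that insert oxygen into their substrates, with electrons passed on by P450 oxidoreductase in the endoplasmic reticulum or by ferredoxin in mitochondria. In the kidney most of them sit in the proximal tubule, where they turn arachidonic acid into epoxides and hydroxylated products that act on blood vessels and salt transport, activate and inactivate vitamin D, and oxidise drugs and steroids. Their genes carry the symbol Cyp followed by family, subfamily and gene number. All genes with such a symbol on the array were taken, apart from Cyp51 of cholesterol synthesis, and only probe sets assigned to a single symbol were used. This gave 57 genes measured by 64 probe sets, of 14217 named genes and 31042 probe sets in all. Each gene is represented by its probe set with the highest mean log2 signal over the 15 arrays.

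The 15 arrays measured kidneys of male rats aged 10 to 12 weeks, 1 kidney per array and 5 per group. In the allogeneic group (aTX) Lewis Brown Norway (LBN) kidneys had been placed in Lewis recipients, which reject them acutely. The syngeneic group (sTX) held LBN kidneys placed in LBN recipients, which have the surgery and the ischemia without the foreign tissue. Control kidneys (ctr) were native, ungrafted LBN kidneys. Grafts were removed on day 4 from recipients that had lost both own kidneys and received no immunosuppression. Values are MAS5 signals, a linear intensity scaled on each array, whose median over the probe sets of an array lay between 24.3 and 30.0. Signals of different probe sets are not compared with each other, since each probe set binds its transcript with its own strength. A gene is called higher or lower where its limma test, adjusted over all 31042 probe sets, gave a p below 0.05. Changes are log2 differences with their standard errors (SE), and folds are ratios of geometric means.

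Source names in the labels give other strains (Lewis kidneys throughout, put into Lewis rats in sTX and into LBN rats in aTX), and a treatment field calls sTX 4 and sTX 5 allogeneic against their titles. The instrument records give each array a hybridization date and time, and the arrays were split by its AM or PM mark. These 2 sets are called AM/PM sets here, and no record of washing was used. The first holds all ctr arrays and aTX 2, 3 and 4, and the second all sTX arrays and aTX 1 and 5. As sTX and ctr share no AM/PM set, their difference can be set against it only through the aTX arrays. The 11 measured proximal tubule markers had summed signals of 15660 to 21840 in aTX, 27850 to 33930 in sTX and 30600 to 41670 in ctr, and 10 of them were lower in aTX than in ctr. All 8 markers of T and cytotoxic cells were higher in aTX than in ctr, with sums of 3439 to 5199 in aTX, 164.4 to 355.7 in sTX and 108.4 to 193.8 in ctr. Macrophage markers behaved alike (9 of 9 higher in aTX than in ctr, with sums of 10050 to 12790 in aTX, 3536 to 5109 in sTX and 2043 to 2596 in ctr). None of the markers on these lists was at 0 in all arrays of a group. The 3′ to 5′ signal ratio of the beta-actin control probes, a sign of RNA integrity, was 1.14 to 1.29 in aTX, 1.45 to 1.61 in sTX and 1.54 to 1.98 in ctr. The part of cell composition and RNA integrity in the results below was not tested. In whole kidney, fewer tubule cells and less RNA per tubule cell cannot be told apart.

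Sequences upstream of 4 genes are shown first, for the pair with the largest rises and the pair with the largest falls in aTX against ctr among genes with a mean signal of at least 50. Each run holds the 250 bases before the RefSeq start site on GRCr8, 5′ to 3′ on the gene's strand, and capitals mark matches to the motifs spelled out after them.
Cyp1b1 (chr6:21094315-21094564, + strand): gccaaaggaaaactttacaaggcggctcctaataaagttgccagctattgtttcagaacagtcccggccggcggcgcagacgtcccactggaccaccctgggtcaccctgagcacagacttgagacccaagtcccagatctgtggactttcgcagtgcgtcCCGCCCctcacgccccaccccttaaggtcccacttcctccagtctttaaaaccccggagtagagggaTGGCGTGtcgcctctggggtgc
Cyp27a1 (chr9:83713282-83713531, + strand): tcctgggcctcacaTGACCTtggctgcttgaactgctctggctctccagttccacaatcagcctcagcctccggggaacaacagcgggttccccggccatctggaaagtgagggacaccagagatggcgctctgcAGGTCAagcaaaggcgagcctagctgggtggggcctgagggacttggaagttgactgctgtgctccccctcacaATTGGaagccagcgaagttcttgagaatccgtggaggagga
Cyp2c11 (chr1:246174966-246175215, + strand): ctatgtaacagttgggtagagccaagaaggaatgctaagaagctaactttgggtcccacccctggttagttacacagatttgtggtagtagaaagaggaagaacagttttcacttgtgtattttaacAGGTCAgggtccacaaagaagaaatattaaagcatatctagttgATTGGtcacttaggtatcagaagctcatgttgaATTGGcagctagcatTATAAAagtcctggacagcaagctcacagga
Cyp2e1 (chr1:205269717-205269966, + strand): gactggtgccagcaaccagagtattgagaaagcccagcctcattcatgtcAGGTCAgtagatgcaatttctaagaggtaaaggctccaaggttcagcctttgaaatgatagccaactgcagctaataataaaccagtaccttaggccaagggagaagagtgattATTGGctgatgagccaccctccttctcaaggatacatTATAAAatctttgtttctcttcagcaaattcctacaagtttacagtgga

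Upstream of Cyp1b1 the letters TNGCGTG, the core of the element bound by the aryl hydrocarbon receptor, were found with their first base at -22 from the start site, with a GC box (GGGCGG) at -89 on the other strand. Cyp27a1 carried the nuclear receptor half-site AGGTCA at -236 and -115 and a CCAAT box at -41. Cyp2c11 and Cyp2e1 both carried a TATA box (TATAAA), at -31 and -49, with CCAAT boxes at -79 and -46 in Cyp2c11 and at -86 in Cyp2e1. A half-site AGGTCA lay at -123 in Cyp2c11 and at -200 in Cyp2e1. Both strands were searched, in windows running from 250 bases before to 50 bases after the start, for 45 of the 57 P450 genes and for 33469 promoters in all. The P450 shares count 1 window per gene. The shares of all count every listed promoter, without reducing them to 1 per gene. TATAAA was found in 28.9% of the P450 windows and 14.2% of all, AGGTCA in 35.6% and 16.2%, CCAAT in 46.7% and 37.5%, and GGGCGG in 33.3% and 33.1%. TNGCGTG was in 4.44% of the P450 windows (Cyp1b1 and Cyp26b1) and 4.89% of all. GTTAAT, one arm of the palindromic site of the tubule and liver factor HNF1, was in 11.1% and 7.45%, and its 5 P450 carriers were Cyp4a3, Cyp4f1, Cyp2d2, Cyp2a3 and Cyp2b12. Of the 45 genes, 19 were lower in aTX than in ctr, and by motif these were 4 of 13 with TATAAA, 8 of 21 with CCAAT, 6 of 16 with AGGTCA, 6 of 15 with GGGCGG, 1 of 2 with TNGCGTG and 4 of 5 with GTTAAT. A gene may carry several of these, and 1 of the 4 with GTTAAT is Cyp2a3, whose call most alternatives lose. A match says only that the letters are there.

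In aTX against ctr, 21 of the 57 P450 genes were lower, 6 were higher and 30 were not called. Of all 14217 genes, 27.7% were lower and 27.7% were higher in that comparison. The median log2 change was -0.63 over the P450 genes and -0.03 over all genes. In aTX against sTX, 21 P450 genes were lower, 4 higher and 32 not called (28.4% lower and 19.8% higher over all genes), with a median of -0.55 against -0.13 over all genes. In sTX against ctr, 7 were lower, 3 higher and 47 not called (8.86% lower and 16.1% higher over all genes), with a median of -0.09 against 0.08. In aTX against ctr all aTX grafts lay below all ctr kidneys for 19 P450 genes and above them for 3 (22.3% and 23.2% over all genes). The same count was 17 below and 2 above in aTX against sTX (22.6% and 17.3%) and 6 below and 2 above in sTX against ctr (6.80% and 12.1%). A fit with the AM/PM set as a block left 25 of the 27 calls in aTX against ctr. It left 18 of the 25 calls between aTX and sTX and 1 of the 10 between sTX and ctr, that of Cyp1b1. These comparisons share their arrays, so each is given for itself.

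Most calls fell on the brighter genes. The 38 genes with a mean signal under 50 gave 6 lower and 2 higher calls in aTX against ctr. All 19 genes with a mean of at least 50 were called in that comparison, 15 lower and 4 higher, where 37.0% and 35.6% of all genes as bright were called. In aTX against sTX the same 19 gave 16 lower and 3 higher calls (36.6% and 27.7% over all genes as bright), and in sTX against ctr 6 lower and 2 higher (13.7% and 20.3%). Of these 19, Cyp2c11, Cyp4a3, Cyp4f1, Cyp2d2, Cyp2d4 and Cyp2t1 were lower in every comparison, and Cyp1b1 was higher in every one.

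**Figure D1:**
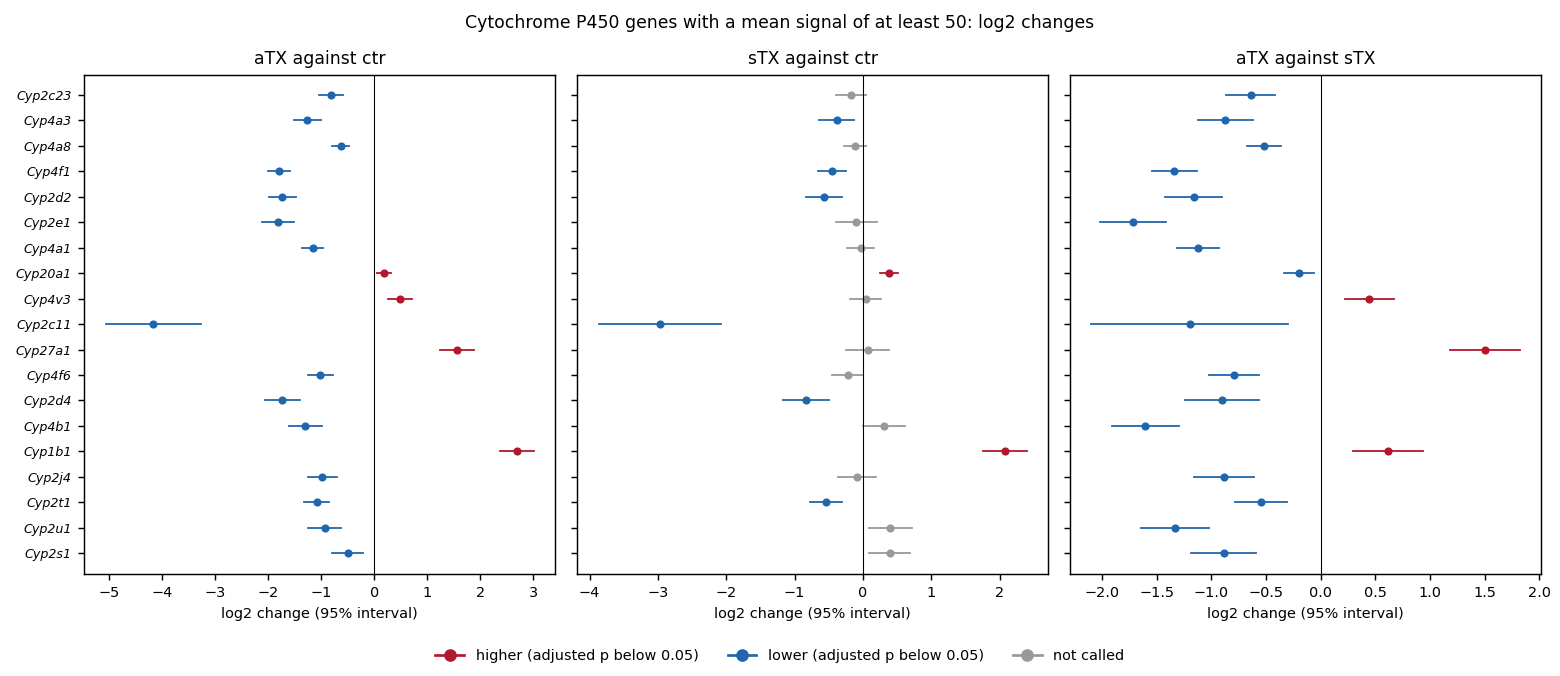
Log2 changes (x axis, whose range differs between panels) of the 19 P450 genes with a mean signal of at least 50, ordered by signal, for aTX against ctr, sTX against ctr and aTX against sTX. Points are fitted changes and bars 95% intervals, red for higher, blue for lower and grey for not called. In aTX against ctr 15 genes lie left of 0 and 4 right of it, with Cyp2c11 at -4.17 and Cyp1b1 at 2.69 at the ends.

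The epoxygenases make vasodilator epoxides from arachidonic acid. Cyp2c23, the main epoxygenase of rat kidney, had signals of 2254, 2488, 2409, 2606 and 2062 in the aTX grafts, 3497, 3976, 3649.6, 3374 and 3896 in the sTX grafts and 3908, 3653, 3409.6, 5312 and 4746 in the ctr kidneys. Every aTX graft lay below every other kidney, while sTX and ctr overlapped. The gene was 1.76-fold lower in aTX than in ctr (log2 -0.82, SE 0.11, adjusted p = 2.48e-06) and 1.56-fold lower than in sTX (adjusted p = 7.13e-05). In sTX against ctr its log2 difference was -0.18 (95% interval -0.40 to 0.05, adjusted p = 0.307). With median centring alone it was called lower there (log2 -0.37, adjusted p = 0.0207, from 0.0207 to 0.955 over all alternatives).

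Cyp2c11, the male form of rat liver that also makes epoxides, had the largest fall of the genes with a mean signal of at least 50. Its signals were 21.2, 109, 90.9, 76.7 and 47.9 in aTX 1 to 5, 134, 48.3, 91.9, 271 and 304 in sTX 1 to 5 and 964, 1003, 1346, 912 and 1217 in ctr 1 to 5. Both graft groups lay below all native kidneys, with a spread of several fold inside each graft group. The aTX grafts of the second AM/PM set (1 and 5) had the lowest signals of their group. The highest sTX signals were those of sTX 4 and 5, whose treatment label disagrees with their title. The fall was 18-fold in aTX (log2 -4.17, SE 0.43, adjusted p = 8.9e-08) and 7.83-fold in sTX (log2 -2.97, adjusted p = 5.32e-05) against ctr. With the AM/PM set as a block the aTX change was -3.56 and the sTX change -1.45. The second was no longer called (adjusted p = 0.276, from 5.88e-06 to 0.276 over all alternatives). The difference between the grafts was -1.20 (adjusted p = 0.0345) and rested on single arrays, as it was lost without any 1 of aTX 1, aTX 5, sTX 1, sTX 4 or sTX 5. Without both sTX 4 and 5 it was -0.49, and with the AM/PM set as a block -2.11.

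Cyp2j4, an epoxygenase of intestine and kidney, was 1.97-fold lower in aTX than in ctr and 1.85-fold lower than in sTX, at 50.5 ± 6.32 in aTX, 93.7 ± 14.3 in sTX and 99.8 ± 15.3 in ctr (mean ± SD, n = 5 each; adjusted p = 2.97e-06 and 1.58e-05). Of the other 2 genes of this group, Cyp2j3 was higher in aTX than in ctr at the edge of the threshold (log2 0.57, adjusted p = 0.0433) with a further probe set not called (0.33, adjusted p = 0.399), and Cyp2j10 was not called. The Cyp2j3 call was lost without any 1 of 8 of the 15 arrays and under 7 of 10 other alternatives (adjusted p from 0.0151 to 0.226). Among these were the AM/PM set as a block and a single AM/PM set. Epoxides are broken down by the soluble epoxide hydrolase Ephx2, which was 2.76-fold lower in aTX than in ctr (262 ± 11.6 in aTX, 622 ± 56.5 in sTX, 724 ± 70.8 in ctr; adjusted p = 4.08e-12). It was also 2.37-fold lower in aTX than in sTX (adjusted p = 1.02e-10).

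The Cyp4 enzymes put a hydroxyl group on the end of fatty acids, and those of the Cyp4a and Cyp4f subfamilies make the vasoconstrictor 20-HETE from arachidonic acid. Of 10 measured Cyp4 genes, 6 were lower and 1 higher in aTX than in ctr and likewise in aTX than in sTX, while 2 were lower in sTX than in ctr. Over all genes 27.7% were lower in aTX than in ctr, 28.4% in aTX than in sTX and 8.86% in sTX than in ctr. Cyp4f1 had signals of 436, 559, 584, 565 and 671 in the aTX grafts, 1268, 1463, 1229.8, 1669.5 and 1473 in the sTX grafts and 1877, 1967, 1898, 2046 and 1902 in the ctr kidneys. The 3 groups did not overlap. It was 3.47-fold lower in aTX (adjusted p = 8.03e-12) and 1.37-fold lower in sTX (adjusted p = 0.00235) than in ctr, and 2.53-fold lower in aTX than in sTX (adjusted p = 1.33e-09). Its call in sTX against ctr was lost with the AM/PM set as a block (adjusted p = 0.293).

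Cyp4a3 followed the same order, with 924, 1133, 1081, 1501 and 1193 in the aTX grafts, 1931, 2059, 2018, 2156 and 2421 in the sTX grafts and 2444, 2410.1, 2452, 3385 and 3255 in the ctr kidneys. All aTX grafts lay below all other kidneys, and sTX 5 reached into the ctr range. Its fall was 2.39-fold in aTX (adjusted p = 3.02e-08). In sTX it was 1.31-fold (adjusted p = 0.0313). That call was lost without any 1 of sTX 1, 2 or 3 or ctr 4 or 5 (adjusted p of up to 0.0922). A fit without the trend, a block for the AM/PM set and the methods' t-test each removed the call too. Apart from leaving out single arrays, the alternatives gave an adjusted p from 0.0016 to 0.781. Cyp4a1, a fatty acid hydroxylase driven by PPAR alpha, averaged 274 ± 27.8 in aTX, 598 ± 67.0 in sTX and 614 ± 69.3 in ctr. It was 2.24-fold lower in aTX than in ctr (adjusted p = 2.04e-09) and 2.18-fold lower than in sTX (adjusted p = 6.98e-09), with a log2 difference of -0.04 (95% interval -0.23 to 0.16) between sTX and ctr. Cyp4a8 was 1.55-fold lower in aTX than in ctr (adjusted p = 6.99e-07), and its further probe set had a log2 change of -0.88 (adjusted p = 9.55e-07).

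Cyp4f6 was 2.02-fold lower in aTX than in ctr, at 76.1 ± 10.2 in aTX, 131 ± 9.82 in sTX and 154 ± 23.8 in ctr (adjusted p = 1.64e-07). Cyp4b1, known for activating foreign compounds in lung and kidney, had 43.8, 56.9, 48.5, 41.5 and 37.2 in the aTX grafts, 139.8, 119, 144, 174 and 116 in the sTX grafts and 121, 111, 78.7, 117 and 135 in the ctr kidneys. Its sTX and ctr values overlapped, and it was 3.04-fold lower in aTX than in sTX (adjusted p = 2.85e-08) and 2.46-fold lower than in ctr (adjusted p = 2.88e-07). The exception was Cyp4v3, the rat counterpart of a human lipid hydroxylase of the retina, at 286 ± 30.0 in aTX, 210.0 ± 21.6 in sTX and 205 ± 33.9 in ctr. It was 1.4-fold higher in aTX than in ctr (adjusted p = 0.000877), but its further, dimmer probe set had a log2 difference of -0.39 (adjusted p = 0.548), so the rise rests on 1 probe set. Rat Cyp4a and Cyp4f genes are near-identical copies in places, and a probe set may also bind a neighbour's transcript.

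**Figure D2:**
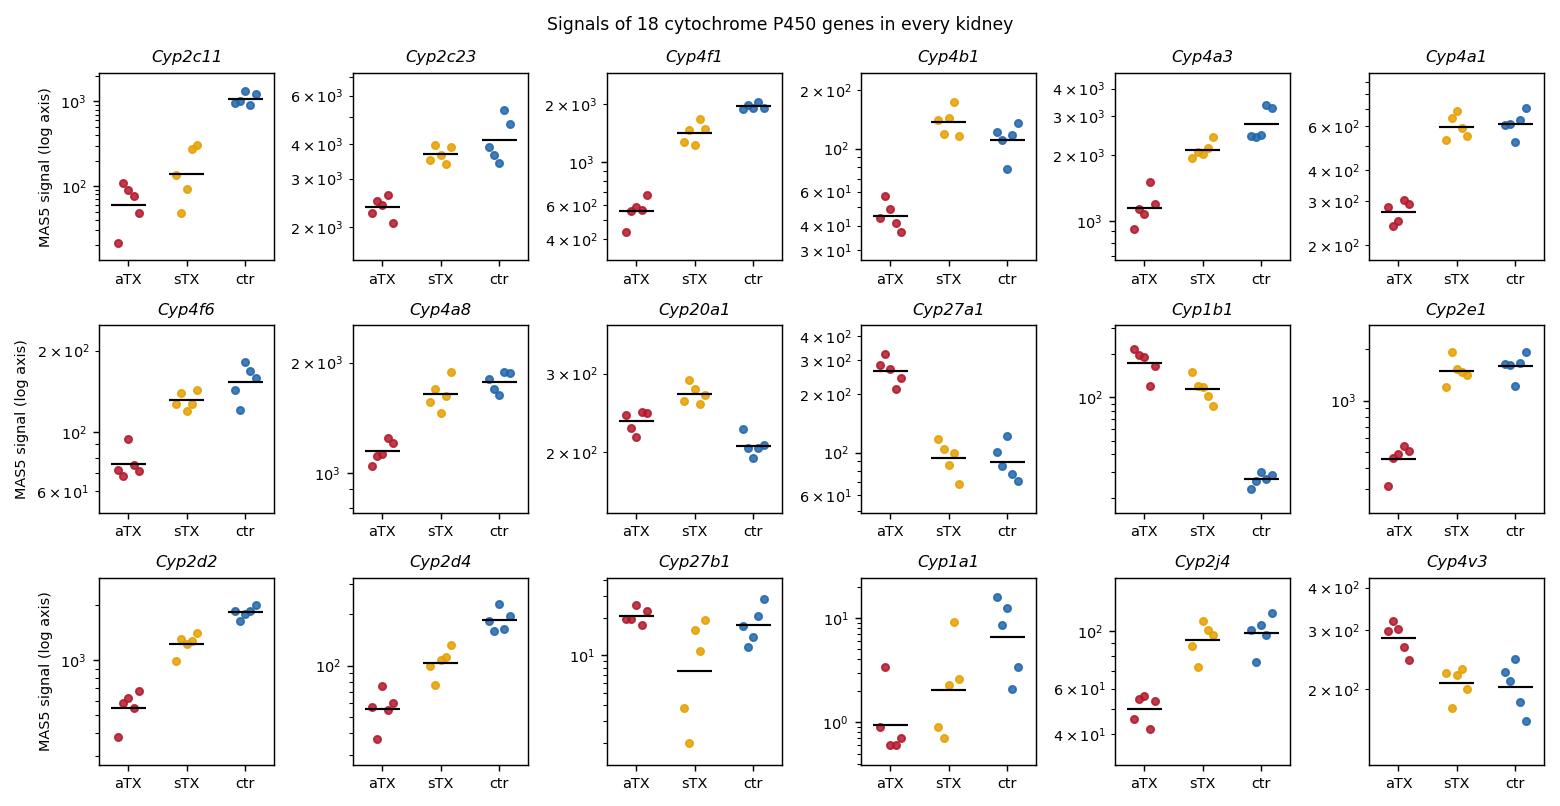
MAS5 signal of 18 P450 genes in each of 15 kidneys (log axis), with aTX in red, sTX in orange and ctr in blue. Points are kidneys in the order of their numbers and lines geometric means; panel ranges differ. For Cyp2c23, Cyp4f1, Cyp4a3, Cyp2e1 and Cyp2d2 every aTX graft lies below every sTX graft and ctr kidney, and for Cyp27a1 every aTX graft lies above them.

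Among the drug-oxidising P450 genes of families 1 to 3, 6 of 24 were lower and 2 higher in aTX than in ctr, 3 lower and 2 higher in sTX than in ctr, and 5 lower and 1 higher in aTX than in sTX. Over all genes 27.7% were lower and 27.7% higher in aTX than in ctr, and 28.4% lower and 19.8% higher in aTX than in sTX. In sTX against ctr 8.86% of all genes were lower and 16.1% higher. Of the 24 genes, all but Cyp2d2, Cyp2e1, Cyp2d4 and Cyp1b1 had a mean signal under 50. Cyp2e1 oxidises ethanol, acetone and other small molecules. Its signals were 312, 458, 488, 539.9 and 508 in the aTX grafts, 1197, 1941, 1531, 1463 and 1414 in the sTX grafts and 1638, 1628, 1218, 1652 and 1933 in the ctr kidneys. No aTX graft exceeded 539.9 and no other kidney lay below 1197. It was 3.52-fold lower in aTX than in ctr (adjusted p = 1.99e-09) and 3.29-fold lower than in sTX (adjusted p = 9.5e-09). Between sTX and ctr its log2 difference was -0.10 (95% interval -0.40 to 0.20). Cyp2e1 was not called in sTX against ctr (adjusted p = 0.717).

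Cyp2d2, which in rats oxidises basic drugs such as debrisoquine, stepped down over the groups, with 378, 582, 619, 545 and 677 in the aTX grafts, 986, 1299.7, 1232, 1277 and 1408 in the sTX grafts and 1861, 1643, 1797, 1866 and 2000.3 in the ctr kidneys. No groups overlapped. It was 3.33-fold lower in aTX (adjusted p = 3.75e-10) and 1.49-fold lower in sTX (adjusted p = 0.00245) than in ctr. Cyp2d4, the form known from rat brain, showed the same order at 57.2 ± 13.8 in aTX, 106 ± 19.6 in sTX and 187 ± 28.3 in ctr, with a 3.32-fold fall in aTX (adjusted p = 2.05e-08) and a 1.77-fold fall in sTX (adjusted p = 0.00102). Its further probe set was lower in both as well (log2 -2.02 and -0.84). With the AM/PM set as a block the calls of Cyp2d2 and Cyp2d4 in sTX against ctr were lost (adjusted p = 0.438 and 0.0846).

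Cyp1b1, which oxidises estrogens and aromatic hydrocarbons and is expressed in mesenchymal cells and macrophages, went the other way. Its signals were 216, 196, 191, 119 and 163 in the aTX grafts, 148, 119.9, 117, 102 and 87.2 in the sTX grafts and 23.0, 26.1, 30.2, 26.9 and 28.6 in the ctr kidneys. All grafts lay above all native kidneys, and the 2 graft groups overlapped. The rise was 6.46-fold in aTX (log2 2.69, SE 0.15, adjusted p = 1.38e-11) and 4.22-fold in sTX (log2 2.08, adjusted p = 1.42e-08) against ctr. Between the grafts it was 1.53-fold (adjusted p = 0.00296), and 0.44 on the log2 scale without sTX 4 and 5 (adjusted p = 0.0514, from 2.07e-04 to 0.0514 over all alternatives). In sTX against ctr it was the only one of 10 P450 calls left with the AM/PM set as a block (log2 1.88, adjusted p = 4.86e-04, from 3.93e-09 to 4.86e-04 over all alternatives).

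Cyp1a1, the classic target of the aryl hydrocarbon receptor, had signals of 0.9, 3.4, 0.6, 0.6 and 0.7 in aTX, 0.9, 0.7, 2.3, 9.2 and 2.6 in sTX and 15.9, 8.5, 12.4, 2.1 and 3.4 in ctr, all below the array median. It was called lower in aTX than in ctr (adjusted p = 0.00546), on values too dim to give the change a size. Cyp3a9, named here after its values were seen as the other riser of this group, was also dim, at 6.8, 32.3, 30.5, 9.9 and 10.9 in aTX, 2.1, 14.8, 10.4, 5.5 and 7.3 in sTX and 1.9, 0.9, 2.7, 0.7 and 0.7 in ctr. It was higher in aTX (adjusted p = 4.48e-05) and in sTX (adjusted p = 0.00655) than in ctr. The sTX call was lost when 16 was added before log2 and when the AM/PM set was a block.

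Both measured genes of vitamin D metabolism were higher in aTX than in sTX, where 19.8% of all genes were higher. Cyp27a1, the mitochondrial sterol 27-hydroxylase that also acts on vitamin D and is active in macrophages, had 285, 324, 272, 214 and 242 in the aTX grafts, 117, 104, 86.5, 99.0 and 68.7 in the sTX grafts and 100.5, 84.8, 122, 77.2 and 71.3 in the ctr kidneys. Every aTX graft exceeded every other kidney, and sTX and ctr overlapped. It was 2.96-fold higher in aTX than in ctr (log2 1.57, SE 0.15, adjusted p = 3.78e-08) and 2.83-fold higher than in sTX (adjusted p = 1.36e-07), while sTX and ctr differed by 0.07 on the log2 scale (95% interval -0.25 to 0.38). Cyp27b1, the 1 alpha-hydroxylase of the proximal tubule, was dim, at 19.4, 19.7, 25.4, 17.6 and 22.7 in aTX, 3.8, 2.0, 15.9, 10.8 and 19.3 in sTX and 17.2, 11.7, 14.0, 20.7 and 28.1 in ctr. The sTX grafts spread from 2.0 to 19.3, and all but sTX 3 and sTX 5 lay below the lowest ctr kidney. It was called higher in aTX than in sTX (log2 1.45, adjusted p = 0.0227). That call was lost without any 1 of sTX 1, sTX 2 or aTX 3 and within a single AM/PM set. Against ctr the aTX difference was 0.25 (95% interval -0.76 to 1.26).

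Of the 2 retinoic acid hydroxylases, Cyp26b1 was lower in aTX, at 15.6, 10.9, 9.8, 7.4 and 11.0 in the aTX grafts, 24.1, 42.5, 64.8, 55.9 and 59.8 in the sTX grafts and 49.8, 70.8, 40.0, 64.3 and 85.7 in the ctr kidneys. It was named after its values were seen. No aTX graft overlapped another group, and the fall was 5.64-fold against ctr (adjusted p = 1.53e-07) and 4.39-fold against sTX (adjusted p = 2.13e-06). Between sTX and ctr its log2 difference was -0.36 (adjusted p = 0.416). A dimmer further probe set had 3.1, 0.8, 2.8, 0.9 and 0.7 in aTX, 3.9, 2.5, 2.1, 5.0 and 6.6 in sTX, and 22.0, 10.7, 11.8, 12.9 and 32.5 in ctr. It was lower in aTX (log2 -3.60, adjusted p = 1.55e-05) and also in sTX (log2 -2.15, adjusted p = 0.00907) than in ctr, so the sTX call depends on the probe set. Cyp26a1 was not called in any comparison. Among 5 genes of steroid hormone synthesis, Cyp21a1, the adrenal 21-hydroxylase, was the single one called lower in aTX than in ctr, and among 5 of cholesterol and bile acid metabolism it was Cyp8b1, the sterol 12 alpha-hydroxylase of liver. Both had signals under the array median in most kidneys, and 27.7% of all genes were lower in aTX than in ctr. The 5 measured adrenal cortex markers summed to 20.7 to 47.3 in aTX, 37.2 to 64.1 in sTX and 29.5 to 74.5 in ctr. At these dim signals 2 of them were called lower in aTX than in ctr and 3 were not called. The 2 were Hsd3b1 (adjusted p = 0.00283) and Nr5a1 (adjusted p = 0.0266, on overlapping values).

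The 4 less characterised members were all lower in aTX than in sTX, where 28.4% of all genes were lower. Each had a mean signal of at least 50, and 36.6% of all genes as bright were lower. Cyp20a1, which has no known substrate, was highest in the sTX grafts, at 235 ± 13.4 in aTX, 270.3 ± 13.6 in sTX and 207 ± 11.4 in ctr. It was 1.31-fold higher in sTX than in ctr (adjusted p = 0.000234) and 1.14-fold higher in aTX (adjusted p = 0.0243). Against sTX it was 1.15-fold lower in aTX (adjusted p = 0.0182), a call also lost with median centring. The aTX call against ctr was lost without any 1 of aTX 1, aTX 4, aTX 5 or ctr 3. All 3 calls of Cyp20a1 were lost with the AM/PM set as a block. Cyp2u1, a fatty acid hydroxylase of brain and thymus, was 2.52-fold lower in aTX than in sTX (adjusted p = 5.04e-07). Its signals were 40.1, 24.4, 41.1, 28.2 and 31.7 in aTX, 79.7, 85.7, 80.4, 96.1 and 68.5 in sTX and 59.4, 56.8, 78.9, 58.7 and 58.3 in ctr, with ctr 3 above the rest of its group. Cyp2s1, found in epithelia of airway and gut, had the same shape at 38.7 ± 5.73 in aTX, 71.5 ± 9.25 in sTX and 55.0 ± 10.7 in ctr. Without ctr 3 both genes were called higher in sTX than in ctr (adjusted p = 0.0298 for Cyp2u1 and 0.0121 for Cyp2s1, up to 0.172 and 0.167 without other arrays and up to 0.827 and 0.423 under other alternatives), and the count of P450 genes higher in sTX was 6 in place of 3. Both were also called with all arrays when probe sets averaging under 50 were left out of the fit (adjusted p = 0.0466 for Cyp2u1 and 0.041 for Cyp2s1), which gave 4 of the 19 brighter genes as higher in sTX in place of 2. Cyp2t1 was lower in aTX (2.12-fold, adjusted p = 1.06e-07) and in sTX (1.45-fold, adjusted p = 0.00198) than in ctr. Its sTX call was lost with the AM/PM set as a block (adjusted p = 0.14). Cyp2u1, Cyp2s1 and Cyp2t1 were named after their values were seen.

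The remaining 28 P450 genes were not called in any comparison, with mean signals over all arrays between 0.6 (Cyp2b12) and 17.4 (Cyp4f5). They include the drug-oxidising forms of rat liver Cyp1a2, Cyp2a1, Cyp2a2, Cyp2c6v1, Cyp2c7, Cyp2c13, Cyp2c22, Cyp3a2, Cyp3a18 and Cyp3a23-3a1, the phenobarbital family members Cyp2b3, Cyp2b12 and Cyp2b21, Cyp2g1 of the nose, and Cyp2d3. Steroid hormone synthesis is represented among them by Cyp11a1, Cyp11b1, Cyp17a1 and the aromatase Cyp19a1, whose 2 further probe sets were not called either. The bile acid and oxysterol enzymes Cyp7a1, Cyp7b1, Cyp39a1 and Cyp46a1, and Cyp2j10, Cyp4f4, Cyp4f5, Cyp4f17 and Cyp26a1, complete this set. At such signals a change may not be detectable. Cyp2c12, a female form of rat liver, was called lower in aTX than in sTX at signals of 0.4, 0.2, 0.2, 0.5 and 0.4 in aTX, 6.7, 0.7, 0.5, 9.3 and 3.6 in sTX and 0.3, 0.3, 0.2, 0.6 and 5.7 in ctr. It lost that call in several alternatives, among them the AM/PM set as a block and leaving out sTX 4 and 5. Cyp2a3, a form of the nose, was called lower in aTX than in ctr (adjusted p = 0.0486) on overlapping signals of 4.0, 6.8, 0.6, 0.4 and 4.7 in aTX, 6.2, 4.3, 7.4, 8.2 and 13.8 in sTX and 6.4, 4.5, 8.5, 5.3 and 9.6 in ctr. That call was lost without any 1 of 12 of the 15 arrays and under most other alternatives, the replicate block among them. Cyp2f4, a form of nose and lung, was lower in aTX than in ctr, at 6.3, 10.7, 11.0, 11.1 and 8.1 in aTX, 16.9, 6.5, 19.3, 13.6 and 20.4 in sTX and 58.6, 28.6, 22.8, 40.4 and 43.7 in ctr (adjusted p = 3.58e-05). Cyp2f4 was lower in sTX than in ctr as well (adjusted p = 0.00554, lost with the AM/PM set as a block). Cyp2j3, Cyp2a3, Cyp2c12 and Cyp2f4 were named after their values were seen.

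**Figure D3:**
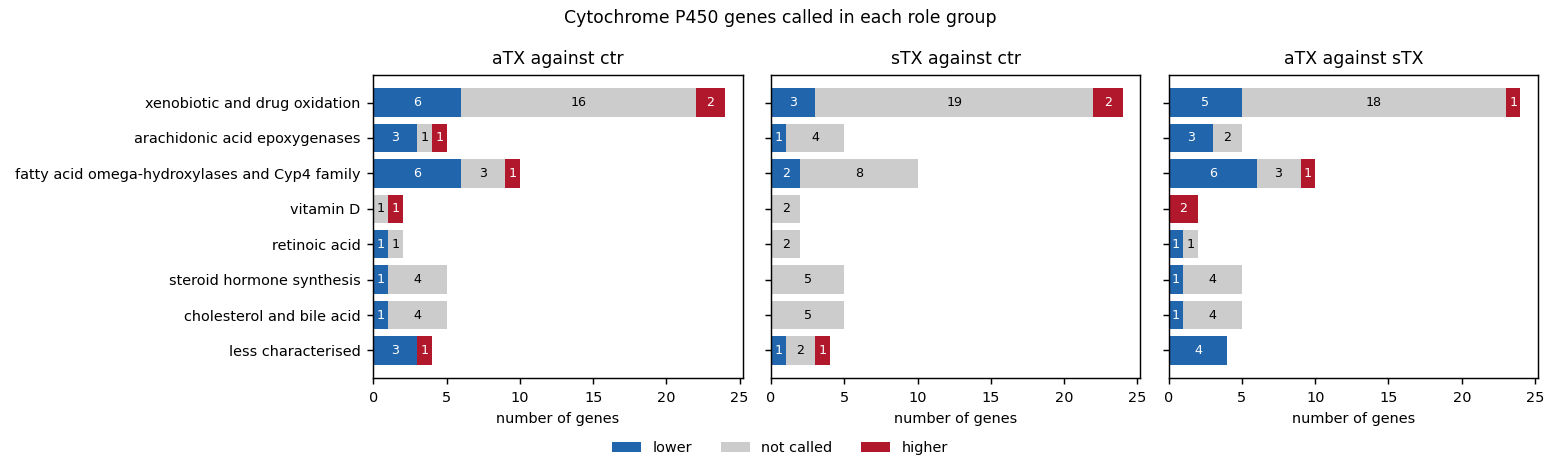
Number of P450 genes (x axis) called lower (blue), not called (grey) and called higher (red) in each role group, for aTX against ctr, sTX against ctr and aTX against sTX. In aTX against ctr, 6 of 10 Cyp4 genes, 3 of 5 epoxygenases and 6 of 24 drug-oxidising genes were lower, against 27.7% of all genes.

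P450 genes lie in tandem groups on the rat chromosomes, and 36 of the 57 had another measured member within 1 Mb of their start. The chromosome 5 group of Cyp4a8, Cyp4a3, Cyp4a1 and Cyp4b1 was lower in 4 of 4 genes in both aTX comparisons, and all 4 had mean signals of at least 50. Of all genes as bright, 37.0% were lower in aTX than in ctr and 36.6% in aTX than in sTX. Over all genes these shares were 27.7% and 28.4%. Whether position plays a part was not tested. In the chromosome 7 group of 5 Cyp4f genes, Cyp4f1 and Cyp4f6 were lower and Cyp4f4, Cyp4f5 and Cyp4f17 were not called in aTX against ctr. Of the 3 Cyp2d genes on chromosome 7, Cyp2d2 and Cyp2d4 were lower and Cyp2d3 was not called. None of 5 Cyp2c genes next to each other on chromosome 1, nor of 3 Cyp3a genes on chromosome 12, was called in aTX against ctr. All 8 had mean signals under 50. Cyp2c11, also on chromosome 1 and lower in aTX than in ctr, is not part of that Cyp2c group.

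A P450 enzyme that inserts oxygen needs electrons and heme, which the partner genes supply in part. Of 21 measured partner genes (23 were listed), 15 were lower and 2 higher in aTX than in ctr, 7 lower and 1 higher in sTX than in ctr, and 14 lower and 1 higher in aTX than in sTX. Over all genes the shares were 27.7% lower and 27.7% higher, 8.86% and 16.1%, and 28.4% and 19.8% in these comparisons. None of the 8 calls between sTX and ctr was left in the fit with the AM/PM set as a block. All 7 measured electron donors and heme genes were lower in aTX than in ctr, with a median log2 change of -0.79. Each had a mean signal of at least 50, and 37.0% of all genes as bright were lower in that comparison. For 6 of the 7 no aTX graft reached a ctr kidney, as for 22.3% of all genes. The seventh was Fdx1, the mitochondrial ferredoxin, at 726, 776, 743, 814 and 745 in aTX, 696, 771, 740.1, 808 and 769 in sTX and 828, 909, 781, 828 and 898 in ctr, whose aTX and ctr values overlapped (1.11-fold lower in aTX, adjusted p = 0.0476). That call was lost without any 1 of 11 of the 15 arrays and under 7 of 11 other alternatives. Fdx1 was named after its values were seen. Por, the oxidoreductase that passes electrons to microsomal P450 enzymes that insert oxygen, had 211, 261, 251, 219 and 228 in the aTX grafts, 228, 274, 251, 245 and 263 in the sTX grafts and 376, 335, 317, 342 and 318 in the ctr kidneys. Both graft groups lay below ctr (1.45-fold in aTX, adjusted p = 5.31e-06, and 1.34-fold in sTX, adjusted p = 0.00042), and they differed from each other by -0.11 on the log2 scale (95% interval -0.27 to 0.05). Cytochrome b5, a second electron donor, was lower in its microsomal form Cyb5a (1.94-fold in aTX and 1.29-fold in sTX against ctr) and its mitochondrial form Cyb5b (2.48-fold in aTX, adjusted p = 1.51e-11). Alas1, the first enzyme of heme synthesis, averaged 340.0 ± 16.5 in aTX, 429.7 ± 44.7 in sTX and 639 ± 89.1 in ctr (adjusted p = 3.18e-08 for aTX and 9.1e-05 for sTX against ctr).

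Of 10 measured regulators of P450 genes, 6 were lower and 1 higher in aTX than in ctr (27.7% and 27.7% over all genes). Hnf4a, a nuclear receptor that maintains P450 expression in liver and proximal tubule, had 788, 877, 815, 978 and 962 in the aTX grafts, 1337, 1482, 1499, 1691 and 1759 in the sTX grafts and 1901, 1904, 1854, 2277 and 2096 in the ctr kidneys. It was 2.27-fold lower in aTX (adjusted p = 6.35e-10) and 1.29-fold lower in sTX (adjusted p = 0.00465) than in ctr. The sTX call was lost with the AM/PM set as a block. The bile acid receptor Nr1h4 averaged 151 ± 24.6 in aTX, 254 ± 26.9 in sTX and 383 ± 43.1 in ctr (adjusted p = 2.94e-09 for aTX against ctr). Rxra, the partner of many nuclear receptors, was 1.82-fold lower in aTX than in ctr (adjusted p = 0.00131). Ppara, the activator of Cyp4a genes, had signals of 1.0, 0.9, 0.6, 1.4 and 1.2 in aTX, 7.5, 5.6, 2.4, 1.1 and 3.0 in sTX and 18.1, 7.5, 2.6, 14.4 and 2.9 in ctr. It was called lower in aTX than in ctr (adjusted p = 0.0014) at signals below the array median. Of the pair that acts on TNGCGTG, Ahr was not called in any comparison and Arnt, named after its values were seen, was higher in aTX than in ctr (log2 1.07, adjusted p = 0.00816). Within a single AM/PM set its log2 difference was 1.10 and no longer called, nor was it by the methods' t-test (adjusted p = 0.063 within the set, from 0.00321 to 0.063 over all alternatives). Its signals were 32.1, 31.6, 28.2, 34.5 and 27.1 in aTX, 29.1, 26.5, 21.1, 20.5 and 20.9 in sTX and 23.5, 15.7, 14.3, 5.3 and 23.8 in ctr, and the 5 aTX grafts lay above all ctr kidneys.

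Prostanoid synthesis uses P450 enzymes with other symbols. Tbxas1, thromboxane synthase of platelets and macrophages, had 169, 213, 219, 218 and 160.3 in the aTX grafts, 58.5, 74.5, 53.3, 57.3 and 58.0 in the sTX grafts and 53.0, 28.3, 47.7, 49.5 and 41.0 in the ctr kidneys. The aTX grafts lay above all others, 4.53-fold over ctr (adjusted p = 2.93e-10) and 3.24-fold over sTX (adjusted p = 2.32e-08). Ptgis, prostacyclin synthase of vessels, was lower in aTX than in sTX at dim signals (2.8, 4.5, 11.2, 3.5 and 4.9 in aTX and 23.3, 23.7, 31.6, 19.1 and 5.5 in sTX, adjusted p = 0.006). In ctr its signals were 4.0, 14.4, 10.2, 10.6 and 3.9. Neither graft group was called against ctr for Ptgis (adjusted p = 0.343 for aTX and 0.11 for sTX).

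**Figure D4:**
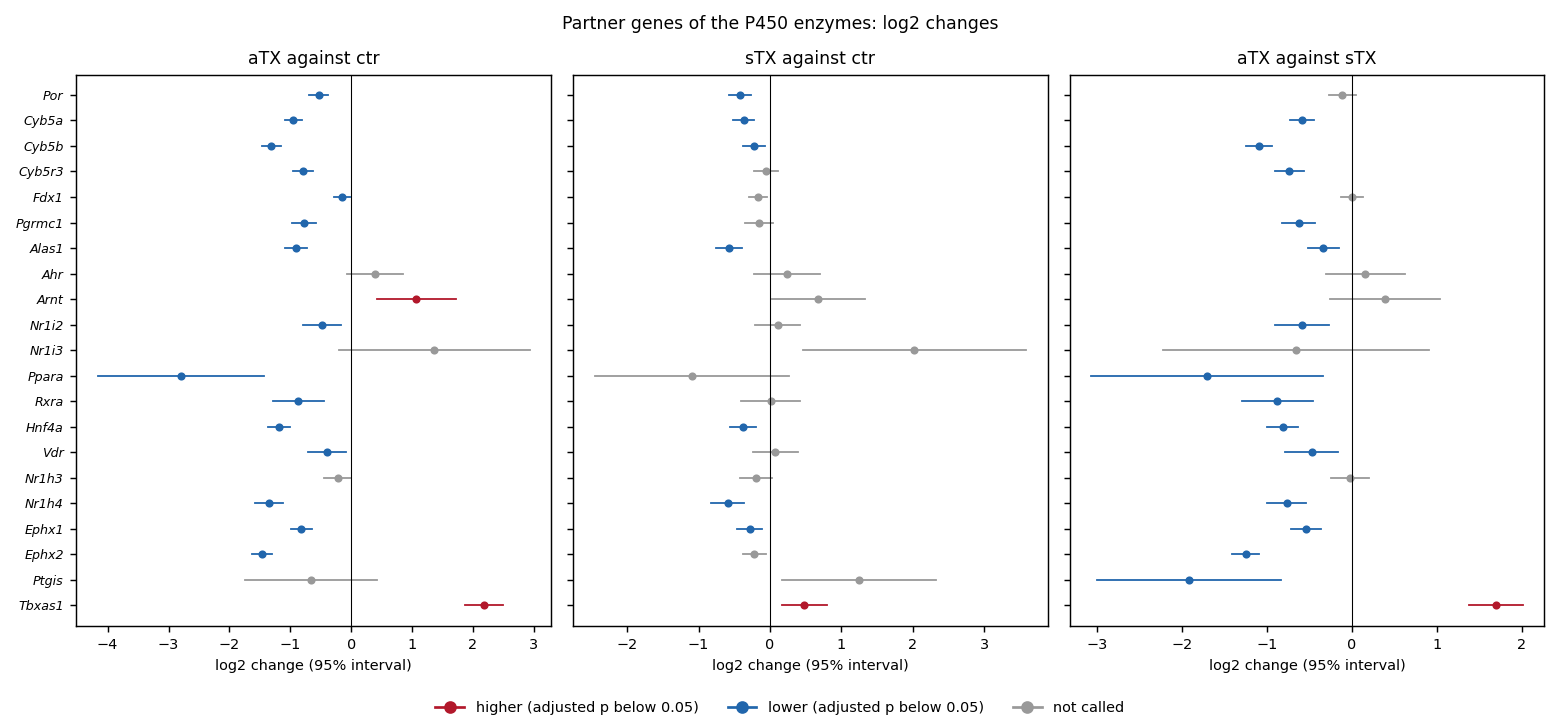
Log2 changes (x axis, whose range differs between panels) of 21 partner genes of the P450 enzymes, for aTX against ctr, sTX against ctr and aTX against sTX. Points are fitted changes and bars 95% intervals, red for higher, blue for lower and grey for not called. In aTX against ctr all 7 electron donors and heme genes, from Por to Alas1, lie left of 0 and Tbxas1 lies furthest right at 2.18.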

How the data were processed

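RNA of 15 rat kidneys was hybridized to Affymetrix Rat Genome 230 2.0 arrays, 1 per kidney. The intensities deposited by the authors are MAS5 signals, linear and summarised per probe set. The methods give a scaling target of 400, whereas the deposited intensities have a mean of 100 on every array once the top and bottom 2% are left out. Detection calls were not used here. Probe sets were named through a table of the platform annotation, in which 20826 of 31042 non-control probe sets have 1 symbol, 436 several and 9780 none. The 7 P450 probe sets with several symbols were left out, and Cyp24a1 and Cyp4a2 were not analysed here.

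Signals were floored at 0.05 (no P450 signal needed it), taken to log2 and fitted in 1 limma model of the 3 groups with all 15 arrays (lmFit, contrasts.fit, eBayes with trend; R 4.3.3, limma 3.58.1), with Benjamini-Hochberg adjustment over 31042 probe sets. The fit was tested on simulated data. Tables and figures used Python 3.11.15, pandas 2.3.3, numpy 2.4.6 and matplotlib 3.10.9. The labels give separate kidneys, and ctr may be the donors' other kidney, with pairs not given. AM/PM sets stand for the AM or PM mark of the hybridization date in the instrument records, and no record of washing was used. The precision is limited by 5 arrays per group.

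The members, role groups, partner genes and markers were chosen with earlier results of these data known. Genes named with values are, per role group, up to 6 called members with a geometric mean of at least 100 in some group, a fixed list of renal P450 genes, and up to 6 risers in aTX with a geometric mean of at least 50 there, and partner genes up to 6 per comparison by size of change. Alternatives were 16 added before log2, a mean signal of at least 50, median centring, quantile normalization, no trend, the AM/PM set as a block, single AM/PM sets, the replicate number as a block, the mean over a gene's probe sets, the methods' t-test, leaving out sTX 4 and 5, and leaving out each array. Upstream sequences are RefSeq's on GRCr8, matched by gene ID.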

Additional observations from a re-analysis of the deposited data

Results flagged for a closer look

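In 10 of 120 groups of 5 kidneys of the named genes, 1 kidney stood apart from the rest of its group on the log2 scale (Dixon test), where chance gives about 1 in 20. Of these 10, 4 were in ctr 3. Its Cyp2u1 signal was 78.9 (others of its group 56.8 to 59.4) and its Cyp2s1 signal 73.7 (47.6 to 53.6), while Nr1h4 stood at 308.3 (387.2 to 417.8) and Cyb5a at 1742 (1960.5 to 2035.7). Without ctr 3, the sTX against ctr comparison gained Cyp2u1, Cyp2s1 and Cyp2j10 as higher. In ctr 2, Cyp2t1 was 84.1 (99.1 to 105.4).

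In aTX 1, Cyb5a was 937.7 (1007.6 to 1036.4) and Rxra was 14.7 (25.8 to 30.8). In aTX 2, Cyp1a1 was 3.4 (0.6 to 0.9). In sTX 2, Tbxas1 was 74.5 (53.3 to 58.5), and in sTX 5, Ptgis was 5.5 (19.1 to 31.6).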

How the results depend on the processing

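Over all alternatives, 0 calls of P450 genes turned to the opposite direction, and of 3044 values of single named genes 2830 kept their call status, 186 lost a call, 27 gained one and 1 that had been called changed sign. Differences that were not called, such as those of Cyp4a1, Cyp2e1 and Cyp27a1 between sTX and ctr, took either sign and are counted as unchanged. That of Cyp2c23 took either sign too, but with median centring it was called lower in sTX and is counted there as gained. The called value was Cyp4v3 in aTX against sTX, at -0.0051 on the log2 scale as the mean over its 2 probe sets, against 0.44 from the brighter one. With the AM/PM set as a block, sTX against ctr had 0 P450 genes lower (7 without it), 1 higher (3 without it) and 0 partner genes called (8 without it). In the same fit aTX against sTX had 2 P450 genes higher (4 without it). Median centring gave 11 P450 genes lower in sTX than in ctr, and moved the median of all probe sets there to -0.11 from 0.09 and in aTX against sTX to -0.06 from -0.18. Partner genes called in sTX against ctr were 5 with quantile normalization and 5 without the trend. The methods' t-test at p below 0.001 gave 3 P450 genes higher and 11 partner genes called in aTX against ctr, 1 higher and 13 lower in aTX against sTX, and 4 partner genes called in sTX against ctr.

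Leaving out 1 array at a time gave 4 to 7 P450 genes higher and 20 to 21 lower in aTX against ctr, 3 to 6 higher and 6 to 8 lower in sTX against ctr, and 3 to 4 higher and 17 to 22 lower in aTX against sTX. Partner genes called were 15 to 17, 5 to 10 and 13 to 15 in the same comparisons. The 6 P450 genes higher in sTX than in ctr came without ctr 3, and 5 partner genes came without sTX 1 or ctr 5. Kidneys of different groups with the same number showed no shared deviation (r from -0.02 to 0.03, 0 of 15 pairs above 0.1), so the numbers were not taken as pairs. With the replicate number as a block the P450 counts were 6 higher and 20 lower, 3 and 7, and 4 and 21. Dim signals limit all counts, as 38 of 57 P450 genes have a mean signal under 50.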
